A study of Mus musculus with 8 samples.

Results

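The genes described here are 32 of the 24346 listed in 8 RNA sequencing libraries of mesenchymal cells from the mouse large intestine: Myc, its partner Max, the MYC antagonists Mxd1 and Mxd4, and 28 genes of ribosome biogenesis. They were chosen by symbol, and all 32 symbols were found in every library. Per the labels, the cells were sorted as CD45-, EpCAM-, CD31-, gp38+, PDGFRα high and Ly6C negative. A first pair of libraries came from untreated cells of a Cxcl12 flox/flox mouse (control, 1 library) and of a Foxl1cre; Cxcl12 flox/flox mouse (conditional knockout, 1 library). The other 6 came from C57BL/6 mice and carry the label of GABA and taurine treatment (1 mM and 20 mM) at 0 h (3 libraries) or 6 h (3 libraries). These 6 are called the time libraries here and the first pair the genotype libraries. Cre is driven by Foxl1, so deletion is limited to cells that express or have expressed Foxl1, and the sources used here do not state how many sorted cells that covers. They also do not state ages, the strain of the floxed mice, pooling of animals, or whether mice or isolated cells were treated. Whether the 3 replicates were separate animals or cultures is not stated either, so p-values below cover library-to-library spread that may be purely technical. No untreated 6 h library was analysed here.

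Values are FPKM, fragments scaled to transcript length and to the mapped total, as deposited. They summed to 513001 to 579004 per library. The number of genes above 0 differed by library set: 21006 (control) and 20874 (knockout) against 14818 to 14974 in the time libraries. The targeted gene Cxcl12 stood at 740 FPKM in the knockout and 1298 FPKM in the control library. Pdgfra and Pdpn, which encode PDGFRα and gp38, were high in both sets, at 202 and 226 FPKM and 96.1 and 91.7 FPKM in the genotype libraries. In the time libraries Pdgfra ran from 152 to 227 FPKM and Pdpn from 281 to 304 FPKM. Foxl1 stood at 10.2 FPKM (control) and 11.6 FPKM (knockout), but at 0.109 to 0.289 FPKM in the time libraries. Ly6c1, of the family the sort excluded, stood at 141 FPKM (control) and 89.6 FPKM (knockout) against 8.76 to 12.4 FPKM in the time libraries.

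Ribosome biogenesis begins in the nucleolus, where RNA polymerase I transcribes the ribosomal RNA precursor. Small nucleolar ribonucleoproteins (snoRNPs) modify that precursor, and assembly factors cut, fold and package it into the small and large ribosomal subunits. MYC, as a dimer with MAX, binds E-box sequences such as CACGTG and is known for raising transcription of many genes of this pathway. The MXD proteins compete for MAX at the same sequences and repress. In stromal cells, Myc is an immediate early gene that mitogens and serum induce.

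RefSeq promoter windows (GRCm38.p6), each from 250 bases before to 50 bases after an annotated start, were given for 26 of the 32 genes. The palindrome CACGTG, which reads the same on both strands, was in the window of 8 of these 26 genes (30.8%), against 8.09% of all 27025 genes with a window. Related hexamers CACGCG or CGCGTG, which are each other's reverse complement and do not overlap CACGTG, were in 6 of the 26 (23.1%), against 10.5% of all genes. With Myc, Max, Mxd1 and Mxd4 left out, CACGTG was in 6 of 23 genes (26.1%). The 8 motifs are shown as a description, and their part in differences between the library sets was not tested. The motifs are written along the gene's strand with CACGTG in capitals. Windows that touch an annotated transcript are limited to 30 bases.
Nop2 (chr6:125131796-125131855, plus strand, motif starting at base -60 from the start): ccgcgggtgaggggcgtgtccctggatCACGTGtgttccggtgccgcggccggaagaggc
Mxd4 (chr5:34187897-34187956, minus strand, base -219): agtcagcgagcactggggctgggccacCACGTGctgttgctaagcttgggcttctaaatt
Max (chr12:76962234-76962263, minus strand, base -3): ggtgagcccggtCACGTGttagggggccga
Pes1 (chr11:3963965-3963994, plus strand, base 3): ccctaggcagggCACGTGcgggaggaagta
Wdr43 (chr17:71616220-71616249, plus strand, base 18): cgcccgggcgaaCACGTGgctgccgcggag
Tsr1 (chr11:74898092-74898121, plus strand, base 25): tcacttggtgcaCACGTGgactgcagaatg
Utp20 (chr10:88826765-88826789, minus strand, base 38): cggcactaactaCACGTGaggaaaa
Mybbp1a (chr11:72441355-72441376, plus strand, base 41): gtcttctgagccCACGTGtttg
Measured from the RefSeq start, the motifs of Nop2 and Mxd4 lie well upstream and that of Max lies at the start. The other 5 lie within the 50 bases after it. Starts can differ in another annotation: in GENCODE M21 the Wdr43 gene begins at 71615895, before its printed window. The Mxd4 window, a repressor's own, also holds the motif, while that of Mxd1 does not. Of other pathway genes with a window, 13 of 27 MYC targets outside the nucleolus held the motif. So did 9 of 31 small-subunit processome genes, 7 of 42 large-subunit assembly genes and 1 of 24 small-subunit ribosomal protein genes. The motif was in 1 of 12 exosome genes and in 0 of 10 snoRNP assembly genes. Targets of p53, a list not chosen for MYC, held it in 5 of 12 genes (41.7%), a larger share than the 32 genes' own. A gene counted if any of its windows held the motif. The p53 list had 18 windows for 12 genes, and the 32 genes had 28 windows for 26 genes. A match describes these letters only and is not evidence of binding.

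A second shared feature is that 8 of the 32 genes (25%) hold snoRNA genes inside them on the same strand, against 1.18% of 21924 protein-coding genes in GENCODE M21 (GRCm38). Nop56 on chromosome 2 (130274430 to 130279313, plus strand) holds 5, Nop58 on chromosome 1 (59684971 to 59719044, plus strand) holds 4, and Ncl, Gnl3 and Wdr43 hold 3 each. Such snoRNAs are cut from introns and guide modification of ribosomal RNA. In 14 of the 32 genes an exon overlaps an exon of a gene on the other strand, among them Rrp9 with Parp3 and Bop1 with Mroh1. No share over all genes is given for this count, so it is not read as a trait of the 32 genes. The library kit does not mark strand, so reads in such overlaps cannot be told apart.

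The largest pattern lay between the library sets. All 28 ribosome biogenesis genes, with Myc and Max, were higher in every one of the 6 time libraries than in both genotype libraries, and Mxd1 and Mxd4 were lower in all 6. The median difference in mean log2(FPKM + 1) over the 32 genes was 2.66, against 0.05 over all 12043 genes whose mean reached 1 FPKM. Of all genes, 41.3% were higher without overlap and 37.8% lower, so separation by itself was common. Separation with at least a 2-fold difference was seen upward in 29 of the 32 genes and 19.8% of all genes, and downward in 2 of the 32 and 21.9% of all. The sets may have been normalised separately, and they differ in genotype and treatment labels and in the number of genes above 0. The strain is stated for the time libraries alone. These features cannot be told apart, so the differences in level are given without a test. Nor can a larger share of cells with high levels be told apart from more RNA per cell in sorted bulk samples. In summed FPKM the 32 genes made up 0.131% of each genotype library and 0.826% to 0.879% of the time libraries.

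**Figure D1:**
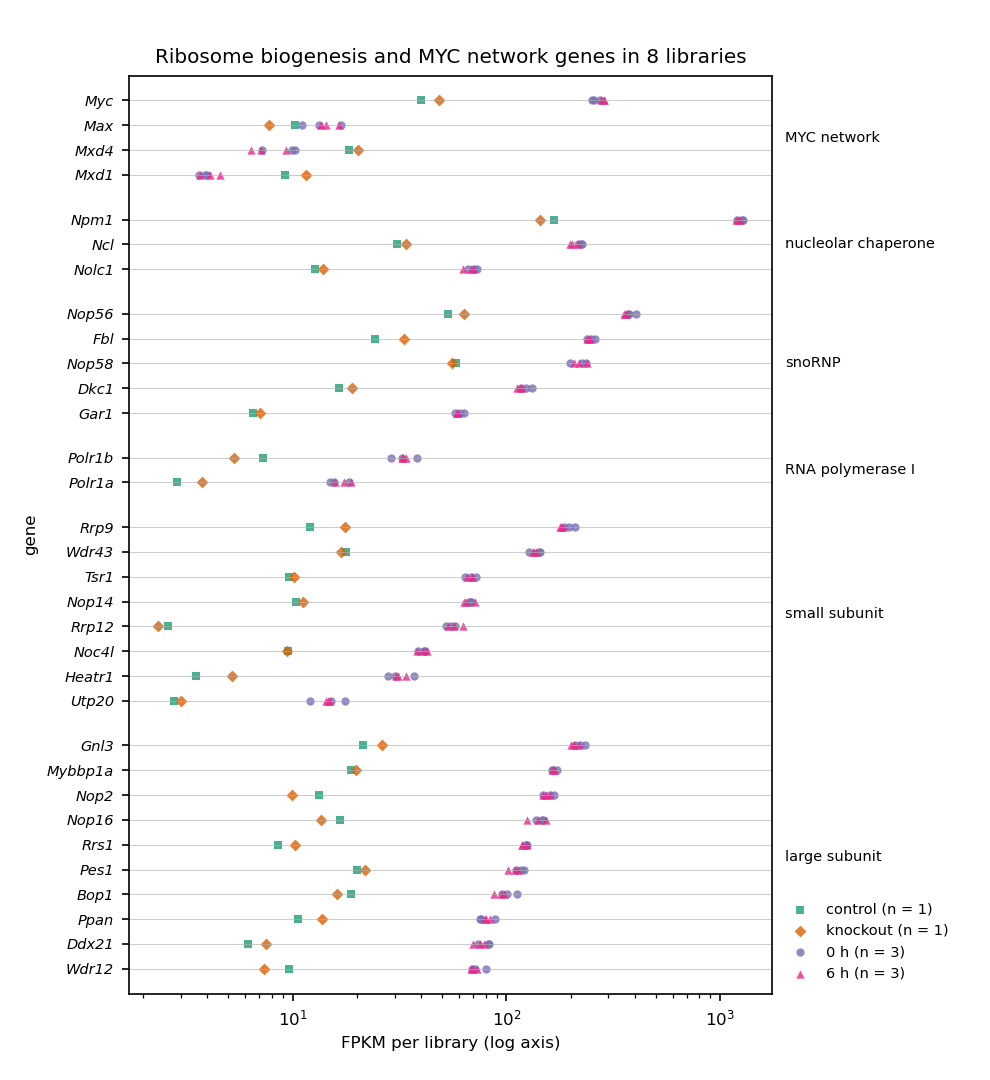
FPKM (log axis) of each of the 32 genes in the 8 libraries, grouped by role, with 1 point per library. The time libraries (0 h and 6 h) lie to the right of both genotype libraries for 30 genes and to the left for Mxd1 and Mxd4, and the 0 h and 6 h points overlap for most genes.

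Within the MYC network, Myc and Max were higher in the time libraries and Mxd1 and Mxd4 lower. Myc (chromosome 15, 61985391 to 61990374, plus strand) stood at 39.8 FPKM (control) and 48.7 FPKM (knockout). In the time libraries it stood at 275, 252 and 256 FPKM at 0 h and at 277, 285 and 286 FPKM at 6 h, a mean 6.15 times that of the genotype libraries. Max differed least among the 30 higher genes: 10.3 and 7.76 FPKM in the genotype libraries against 11.0 to 16.9 FPKM in the time libraries. Mxd1, whose protein pairs with MAX and represses, stood at 9.21 FPKM (control), 11.5 FPKM (knockout) and 3.67 to 4.56 FPKM in the time libraries. Mxd4, of the same family, went from 18.5 and 20.3 FPKM to 6.36 to 10.2 FPKM. The ratio of Myc to Mxd1, a ratio of 2 values in FPKM, was 4.32 in the control, 4.23 in the knockout and 62.7 to 77.4 in the time libraries. Further members of the network outside the 32 were mixed, with a median of -0.32. Of 7 measured, 2 were higher and 3 lower without overlap, beside 41.3% and 37.8% of all genes. Mycn, a MYC paralog, was among the lower ones (9.06 and 9.49 FPKM against 1.32 to 2.87 FPKM), as were Mxi1 and Mga. The higher ones were Mlx (18.4 and 21.4 FPKM against 24.7 to 28.9 FPKM) and the antagonist gene Mxd3, low in both sets (0.73 and 0.728 FPKM against 0.802 to 1.89 FPKM). These 5 were named after their values were seen.

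The nucleolar chaperones included the most abundant of the 32 genes. Npm1, nucleophosmin, had the highest FPKM of the 32 genes in both sets, 167 and 144 FPKM in the genotype libraries and 1191 to 1279 FPKM in the time libraries. Ncl, nucleolin, which binds the ribosomal RNA precursor, stood at 30.9 and 33.9 FPKM and then at 198 to 226 FPKM. Nolc1, a phosphoprotein that binds snoRNPs, stood at 12.8 and 13.9 FPKM and then at 62.4 to 72.5 FPKM. All of these gaps were several times the range within either set.

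The snoRNP proteins covered a wide range of differences within 1 kind of particle. Fbl, the methyltransferase of box C/D particles, stood at 24.3 FPKM (control), 33.3 FPKM (knockout) and 239 to 260.1 FPKM in the time libraries, a mean ratio of 8.54. Its box C/D partner Nop56 stood at 53.6 and 63.6 FPKM against 355 to 404 FPKM. Nop58, the other core protein of that particle, had a mean ratio of 3.89 (58.1 and 55.7 FPKM against 199 to 239 FPKM), the lowest among the 28 ribosome biogenesis genes. Gar1, of the box H/ACA particle, stood at 6.56 and 7.03 FPKM against 57.8 to 63.6 FPKM, and Dkc1, its pseudouridine synthase, at 16.5 and 18.9 FPKM against 112 to 132 FPKM. RNA polymerase I was represented by its largest subunits. Polr1a stood at 2.89 and 3.78 FPKM against 14.9 to 18.8 FPKM, and Polr1b at 7.27 and 5.3 FPKM against 29.0 to 38.2 FPKM.

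Small-subunit factors held the largest single difference. Rrp12, needed for export of the small-subunit precursor, stood at 2.6 FPKM (control) and 2.35 FPKM (knockout), but at 52.3, 55.4 and 57.6 FPKM at 0 h and 56.7, 62.4 and 53.3 FPKM at 6 h. That is a mean ratio of 22.7, and Rrp12 moved from the lowest FPKM of all 32 genes in the genotype libraries to position 24 in the time libraries. Rrp9, a snoRNP protein of the processome, the particle that makes the first cuts, had a ratio of 12.7 (12.1 and 17.6 FPKM against 179 to 210.1 FPKM). The remaining processome genes Heatr1, Wdr43, Utp20, Nop14 and Noc4l had ratios between 4.26 (Noc4l) and 7.85 (Wdr43). Utp20, a large scaffold protein of the processome, stayed low in FPKM in both sets, at 2.78 and 3.01 FPKM against 12.1 to 17.6 FPKM. Tsr1, which acts late in maturation, stood at 9.68 and 10.2 FPKM against 64.2 to 72.4 FPKM.

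Large-subunit factors had the highest median of the groups, 3.09 on the log2 scale. Nop2, a methyltransferase of ribosomal RNA whose E-box is printed above, stood at 13.2 and 9.97 FPKM in the genotype libraries and 148 to 168 FPKM in the time libraries. Rrs1, which helps to load the small ribosomal RNA of that subunit, stood at 8.53 and 10.3 FPKM against 118 to 125 FPKM. The helicase Ddx21 had a ratio of 11.2 and Nop16 of 9.37. Gnl3, the nucleolar GTPase nucleostemin, stood at 21.3 and 26.2 FPKM against 200.4 to 234 FPKM. Of the complex formed by Pes1, Bop1 and Wdr12, the first had the lowest ratio of the group (5.36), Bop1 had 5.59 and Wdr12 8.46. Mybbp1a and Ppan had ratios of 8.62 and 6.63. Mybbp1a varied least among all 32 genes over the 6 time libraries, with a coefficient of variation of 1.95%, where the median was 5.9% and the highest, that of Mxd4, 20.0%.

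Ranks within each library, which do not depend on scaling, gave the same directions. They can depend on how many genes are expressed, and fewer genes were above 0 in the time libraries. No shift in rank of other expressed genes is given beside them. The median percentile of the 32 genes among all listed genes was 77.3 in the genotype and 94.8 in the time libraries, and 30 of the 32 ranked higher in the latter. The order among the 32 genes was similar in both sets (Spearman's rho of 0.78 over 32 genes, a description). Npm1 and Nop56 had positions 1 and 2 by mean in both, while Mxd4 went from position 9 to 31. Of 14 alternatives, only median centring and quantile normalisation could have changed a direction, because the others keep separated groups apart. All 30 directions upward and both downward held in each of the 14, except that Mxd1 was not tested at a filter of 10 FPKM. With that filter, 59.5% of all genes were higher without overlap and the median of all genes was 0.51.

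Most further lists of the pathway had positive medians, with smaller differences for some. Unless stated otherwise, genes counted as higher below are those without overlap, beside 41.3% of all genes. Of 38 other small-subunit processome genes all 38 were higher in the time libraries without overlap, with a median log2 difference of 2.0. Of 46 large-subunit assembly genes 44 were higher, with a median of 2.27, and Mdn1 and Pelp1, named after their values were seen, overlapped. MYC targets outside the nucleolus were higher in 29 of 29, with a median of 2.17. Odc1, the first enzyme of polyamine synthesis, stood at 71.7 and 79.5 FPKM against 339 to 402 FPKM. The remaining RNA polymerase I genes were higher in 11 of 13, the exosome, which trims ribosomal RNA, in 13 of 14, and snoRNP assembly genes in 11 of 12. Ribosomal proteins had smaller differences: all 77 were higher by mean and 75 without overlap. Their median of 1.18 moved between 1.03 and 1.33 in the alternatives. They made up 4.69% and 5.73% of summed FPKM in the knockout and control and 10.5% to 11.7% in the time libraries. Noncoding snoRNA host genes were higher in 7 of 11, with a median of 0.33. RNA polymerase III genes were higher in 18 of 21, with a median of 0.87. Its exchangeable subunits differed in direction: Polr3g stood at 1.53 and 1.05 FPKM against 10.5 to 14.6 FPKM, and Polr3gl at 10.8 and 17.4 FPKM against 2.07 to 3.77 FPKM.

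**Figure D2:**
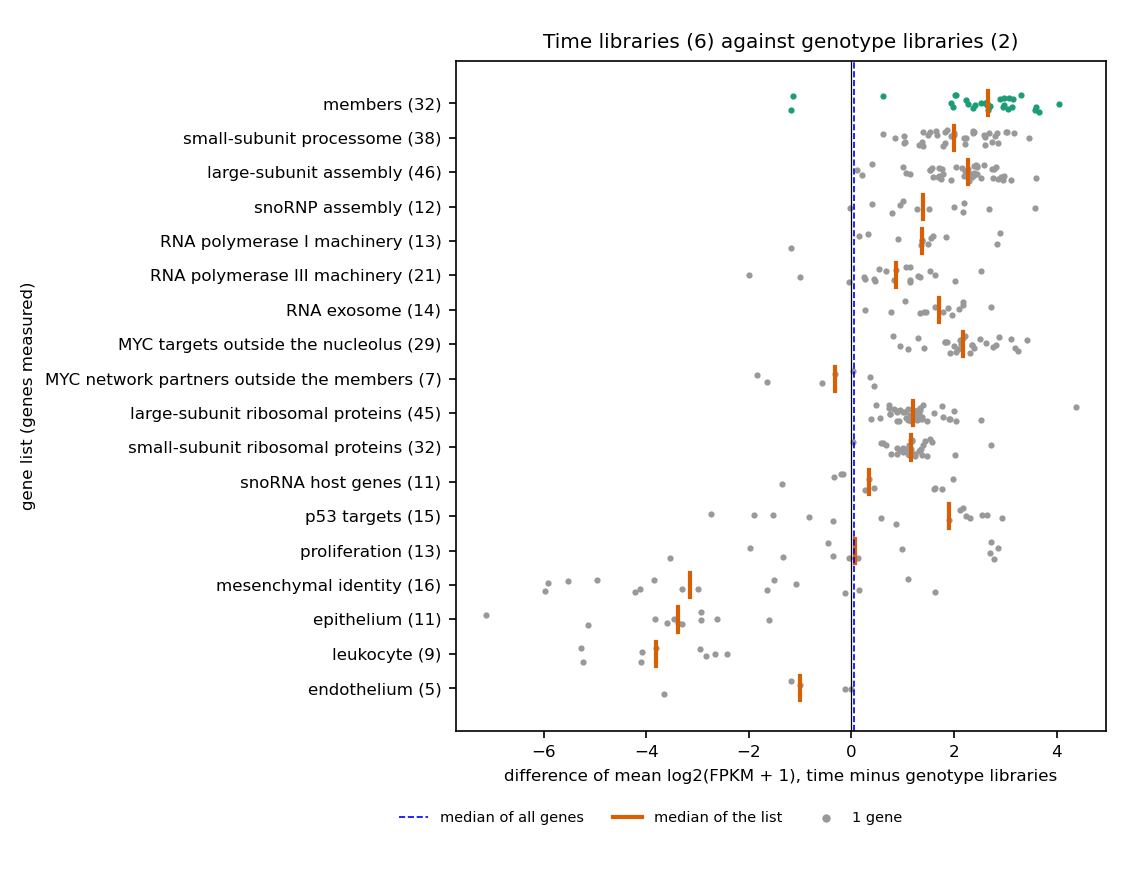
Difference in mean log2(FPKM + 1) between the 6 time and the 2 genotype libraries for each gene (points) of each list, with list medians (orange) and the median of all genes (dashed). The 32 genes (green) have a median of 2.66, ribosomal proteins lie near 1.18, and the medians of mesenchymal, epithelial and leukocyte markers lie below 0.

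Markers of cell type and of division moved between the sets as well, and their part in these differences was not tested. Of 16 mesenchymal identity genes, 12 were lower and 2 higher in the time libraries without overlap, with a median of -3.15 and a summed level of 16587 and 18474 FPKM against 2962 to 3226 FPKM. All 11 epithelial and all 9 leukocyte markers measured were lower, with summed levels of 2.78 to 8.43 FPKM and 1.6 to 11.0 FPKM in the time libraries against 119 to 1077 FPKM and 234 to 280 FPKM. Epcam (0 to 0.48 FPKM), Ptprc (0 to 0.216 FPKM) and Pecam1 (0 to 0.165 FPKM) were at or near 0 in the time libraries. Endothelial markers summed to 70.6 and 43.3 FPKM in the genotype libraries against 14.4 to 21.2 FPKM, and smooth muscle markers to 642 and 764 FPKM against 972 to 1069 FPKM. Glial and neuronal markers summed to 9.56 and 7.31 FPKM against 15.0 to 18.2 FPKM. Proliferation genes were mixed, with 5 of 13 higher and 3 lower without overlap, beside 41.3% and 37.8% of all genes, and a median of 0.07. Mki67 stood at 1.97 and 1.25 FPKM against 0.0459 to 0.237 FPKM, while Mcm2, part of the replicative helicase, stood at 4.39 and 5.7 FPKM against 35.2 to 41.7 FPKM. Summed over the list, proliferation genes stood at 226 and 199 FPKM against 238 to 276 FPKM.

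The comparison of 6 h with 0 h is between libraries that carry the same GABA and taurine label. Without an untreated 6 h library, an effect of treatment cannot be told apart from one of time. None of the 32 genes passed the test at 6 h (limma on log2(FPKM + 1), Benjamini-Hochberg adjustment over 10910 genes, threshold 0.05). Over all genes 0.238% were called higher and 0.312% lower, 26 and 34 genes. These background counts were unstable: both were 0 without the filter or without the intensity trend, 47 and 68 without 0 h replicate 3, and 5 and 36 without 6 h replicate 3. They lay between 0 and 3 without any 1 of 0 h replicates 1 and 2 and 6 h replicates 1 and 2. The lowest adjusted p in limma was 0.511, that of Myc, the only 1 of the 32 with an unadjusted p under 0.05, against 9.38% of all genes. The median log2 change of the 32 was -0.03, and -0.002 over all genes. In limma the 95% intervals of the 28 ribosome biogenesis genes ran between -0.29 and 0.31, that is from 0.819 to 1.24 times, so changes outside that range lay beyond every interval. For the 4 genes of the MYC network they ran between -0.58 and 0.41.

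Myc went from 261 ± 11.9 FPKM at 0 h to 283 ± 5.11 FPKM at 6 h (SD, n = 3), a log2 change of 0.12 (SE 0.05). All 3 values at 6 h lay above all 3 at 0 h. The exact two-sided permutation p was 0.1, the smallest that 3 against 3 can give, and the change ran from 0.09 to 0.15 over all fits, with adjusted p-values from 0.262 in limma. Nop56 went from 384 ± 17.2 to 361 ± 5.2 FPKM and Rrp9 from 197 ± 12.3 to 181 ± 2.53 FPKM (SD, n = 3). These were the only genes of the 32 with all 6 h values below the 0 h values, each with an exact permutation p of 0.1 and adjusted p-values of 0.626 and 0.536 in limma. Counts of 1 higher and 2 lower without overlap stand beside 7.25% and 8.01% of all genes, so they were near the background.

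Small negative values were the more frequent. Log2 changes were below 0 in 24 of the 32 genes, against 50.5% of all genes, and in 17 of 32 after quantile normalisation. They were below 0 in all 3 chaperones, 4 of 5 snoRNP genes, 6 of 8 small-subunit and 9 of 10 large-subunit genes. Bop1 had the most negative value outside the MYC network, -0.14 (103 ± 8.51 and 93.1 ± 4.92 FPKM, SD, n = 3; adjusted p = 0.587 in limma). Mxd4 had the most negative value of all, -0.24, with overlapping groups: 7.17, 10.2 and 9.99 FPKM at 0 h and 7.13, 6.36 and 9.31 FPKM at 6 h. Single libraries weighed on these small values. Of the 32 genes, 12 had their highest value in 0 h replicate 1 and 9 in 0 h replicate 3. The lowest value fell in 6 h replicate 3 for 9 of them. Leaving out 0 h replicate 3 or 6 h replicate 3 gave 20 of 32 below 0.

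Mesenchymal identity genes also leaned upward at 6 h, and the part of cell type markers in these small values was not tested. Of 14 mesenchymal identity genes tested, 13 were above 0, 6 were higher without overlap and 6 had unadjusted p-values under 0.05, with a median log2 change of 0.14. None passed, the lowest adjusted p in limma being 0.0877, and their summed level was 2962 to 3086 FPKM at 0 h and 3175 to 3226 FPKM at 6 h. Of 15 epithelial markers 2 were tested. The keratin gene Krt8, named after its values were seen, passed (0.396 ± 0.291 and 2.06 ± 0.285 FPKM, SD, n = 3, adjusted p = 0.0319 in limma). Its 0 h mean lay below the filter of 1 FPKM, so only its 6 h values brought it into the test. The call is therefore not used as support for a difference in cell type. The epithelial list summed to 2.78 to 4.74 FPKM at 0 h and 4.52 to 8.43 FPKM at 6 h.

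Agreement among the 0 h libraries differed from gene to gene. Polr1b stood at 29.0, 32.6 and 38.2 FPKM at 0 h and at 34.1, 32.7 and 32.4 FPKM at 6 h, and Heatr1 at 28.0, 30.2 and 36.8 FPKM and at 34.0, 31.2 and 30.6 FPKM. In both, 0 h replicate 3 was the highest and the 6 h values lay inside the 0 h range. By contrast Rrs1 stood at 125, 124 and 123 FPKM at 0 h and at 118, 119 and 125 FPKM at 6 h. Mybbp1a gave 172, 163 and 165 FPKM and then 167, 167 and 163 FPKM.

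**Figure D3:**
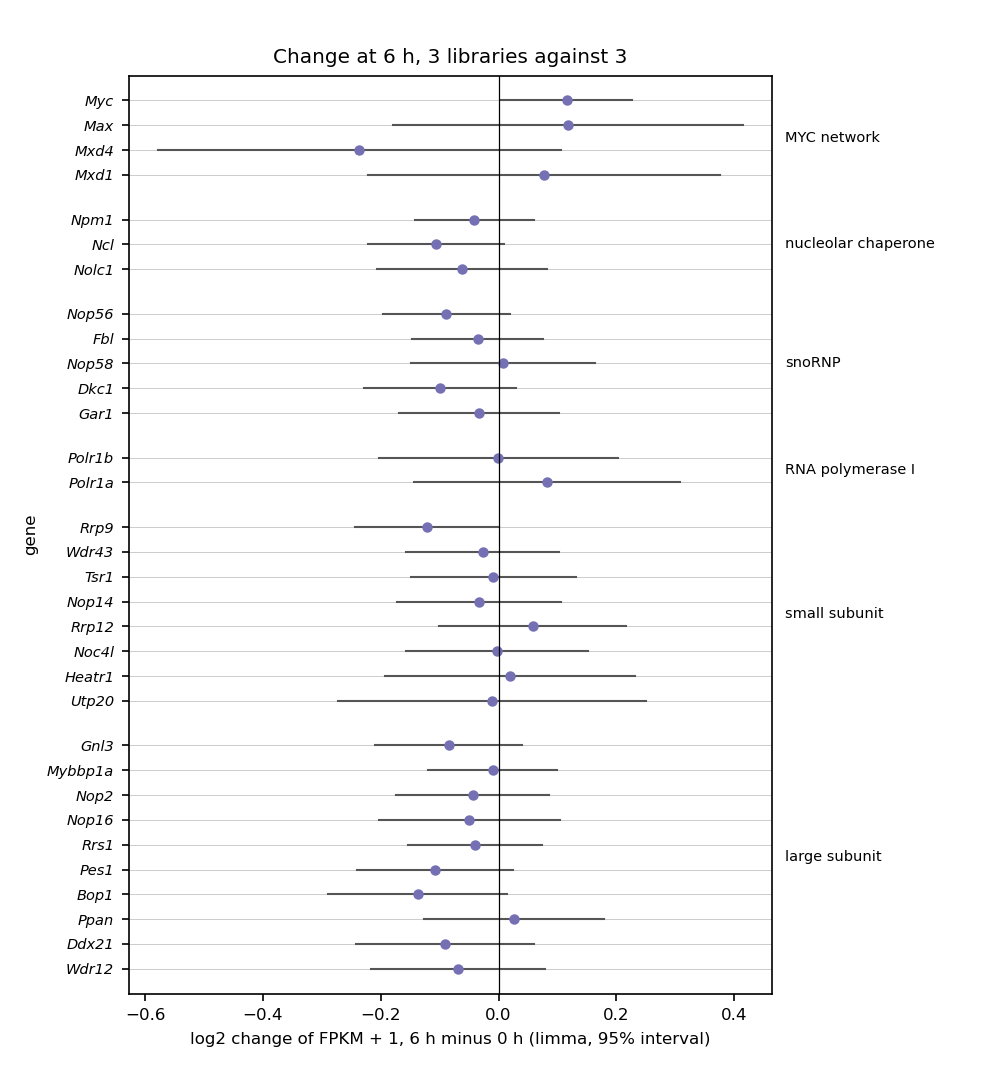
Log2 change of FPKM + 1 from 0 h to 6 h for each of the 32 genes with its 95% interval from limma (3 libraries against 3). No gene passed the adjusted test, and Myc (0.12) is the only gene whose interval lies above 0.

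No list of the pathway had a member past the test at 6 h either, in limma over all genes. Of the large-subunit assembly genes 36 of 46 were below 0, with a median of -0.06 and 7 unadjusted p-values under 0.05 (15.2%, against 9.38% of all genes). Nsa2 stood at 41.7 ± 2.07 and 35.8 ± 1.2 FPKM (SD, n = 3; adjusted p = 0.326 in limma) and Nip7 at 78.7 ± 2.86 and 69.7 ± 0.665 FPKM (adjusted p = 0.341). Of MYC targets outside the nucleolus 22 of 29 were below 0 and 6 had unadjusted p-values under 0.05 (20.7%). By contrast, 0 of 38 small-subunit processome genes and 0 of 13 RNA polymerase I genes had an unadjusted p under 0.05 in limma. Other lists lay between or above: 3 of 14 exosome, 1 of 12 snoRNP assembly and 1 of 21 RNA polymerase III genes. Odc1 stood at 399 ± 3.0 and 357 ± 19.7 FPKM (SD, n = 3; adjusted p = 0.314 in limma). Ribosomal proteins were below 0 in 66 of 77, with a median of -0.04 (0.03 without 0 h replicate 1) and 3 unadjusted p-values under 0.05. Polr3g had the largest change among lists of polymerase genes, -0.30 (13.6 ± 0.92 and 10.9 ± 0.447 FPKM, adjusted p = 0.326 in limma). Proliferation genes were below 0 in 10 of 13, among them Mcm2 (adjusted p = 0.347 in limma).

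The genotype comparison asks what these cells express when Cxcl12 is deleted with Foxl1-Cre. With 1 library per genotype no difference has a replicate check, and no test was possible. The 32 genes lay close together in the 2 libraries: none differed by 1.5-fold on the log2(FPKM + 1) scale, which 4.16% of 14949 genes did upward and 7% downward. Their median log2 ratio was 0.10, with 21 higher in the knockout library, beside a median of 0.04 and 55% higher over all genes. With a filter of 10 FPKM 14 of 20 were higher, beside 68.2% of all genes, so the lean upward was near the background.

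Rrp9 (17.6 FPKM, knockout, and 12.1 FPKM, control), Heatr1 (5.22 and 3.53 FPKM) and Fbl (33.3 and 24.3 FPKM) had the largest positive log2 ratios, 0.50, 0.46 and 0.44. Polr1b (5.3 and 7.27 FPKM), Nop2 (9.97 and 13.2 FPKM) and Max (7.76 and 10.3 FPKM) had the most negative, -0.39, -0.38 and -0.36. Members of 1 complex did not lie on the same side: Polr1a had 0.30 where Polr1b had -0.39, and Pes1 had 0.11 where Bop1 had -0.20 and Wdr12 -0.35. Myc had a log2 ratio of 0.28 and Npm1 of -0.20. The knockout library also held more epithelial marker RNA, 1077 FPKM summed over 15 genes against 119 FPKM, and its part in these values was not tested.

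Ribosomal protein genes differed from the assembly factors. Of 77 measured, 75 were lower in the knockout library, beside 45% of all genes, with a median log2 ratio of -0.25. It was -0.29 after median centring. The other alternatives could hardly move it, and all reused the same control and knockout libraries, so they are no replicate check. All 32 small-subunit and 43 of 45 large-subunit genes were lower. Rps16 stood at 273 FPKM (knockout) and 392 FPKM (control), Rps4x at 342 and 441 FPKM, and Rpl34 at 46.9 and 76.1 FPKM. Rpl26 went the other way (16.1 and 9.62 FPKM). These genes have many processed copies in the genome, and how the authors placed reads among them is not given, so single values, above all the low ones of Rpl26 and Rps27, are uncertain. Rps27 ran from 6.51 to 315 FPKM within the time libraries. Noncoding snoRNA host genes were lower in 9 of 11, with a median of -0.32 and Snhg8 at 16.6 and 28.5 FPKM. Other lists of ribosome biogenesis and MYC targets lay near the median of all genes, from -0.03 for RNA polymerase III genes to 0.12 for the small-subunit processome.

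**Figure D4:**
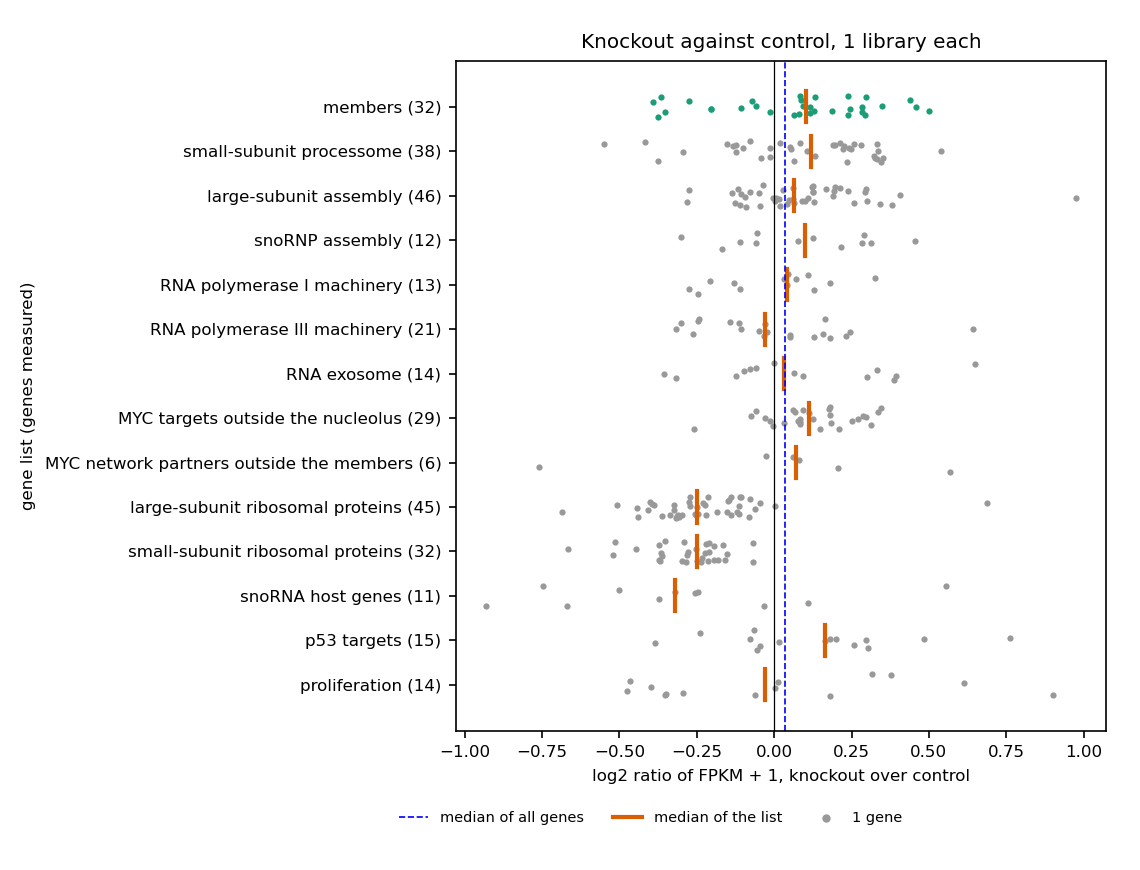
Log2 ratio of FPKM + 1, knockout over control (1 library each), for each gene (points) of each pathway list, with list medians (orange) and the median of all genes (dashed). The 32 genes (green) spread around 0.10, while 75 of 77 ribosomal protein genes lie below 0.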

How the data were processed

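Sorted mesenchymal cells gave 8 libraries. Per the labels' protocols, the SMART-Seq HT kit gave full-length cDNA and Nextera XT the libraries. The authors deposited 1 table of FPKM per library, per the file headers. Cuffdiff 2.2.1, SAMtools 0.1.18, Bowtie2 2.2.8 and TopHat2 2.1.1 appear in the submitters' processing notes, with the mm10 build and without roles. The sources used here do not state the annotation, how multiply mapping reads were placed, or whether libraries were scaled to each other. Read numbers are unknown, so no counting interval is given. From the steps of low values, the knockout library was about 1.25 times as deep as the control library, and the other time libraries 0.824 to 0.959 times as deep as 0 h replicate 1.

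The time comparison (3 against 3) was fitted on log2(FPKM + 1) with limma 3.58.1 (R 4.3.3) and its intensity trend, over the 10910 genes whose mean reached 1 FPKM. Such log2 values understate changes of low genes. The same filter within each comparison left 14949 genes for genotype (1 against 1) and 12043 for library sets (6 against 2), which were described without a test. An exact two-sided permutation test was added for single genes. The scripts were tested on simulated data. No 2 libraries held the same values.

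All 32 genes are named. Up to 3 genes of 13 further pathway lists with the smallest p in the time comparison, and up to 2 with the largest genotype ratio and at least 10 FPKM, could be named, with defining markers of 6 cell type lists. The genes and lists were chosen with earlier results of these data known. Alternatives were another pseudocount (0.1), other filters (none, 10 FPKM), median centring, quantile normalisation, no intensity trend, a replicate block, the 0 h libraries alone for the library sets, a 2-fold limit for genotype and leaving out each library.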

Additional observations from a re-analysis of the deposited data

How the results depend on the processing

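No alternative put any of the 32 genes past the threshold at 6 h: 0 of 414 member fits in limma, with a lowest adjusted p of 0.262 (Myc after quantile normalisation), while 34 had another sign than reported. Their median change ran from -0.04 to -0.01. The number of all genes called was unstable. It was 26 higher and 34 lower as reported, 0 and 0 without a filter, and 0 and 0 without the intensity trend. With the replicate block it was 14 higher and 9 lower. Whether the replicate numbers pair the libraries is not stated. Correlations of same-numbered deviations ran from -0.04 to 0.01, which cannot settle it with 3 libraries a group. Leaving out 1 library gave 0 to 47 higher and 2 to 68 lower, with the most calls without 0 h replicate 3. It gave 0 to 3 in either direction without 0 h replicate 1, 0 h replicate 2, 6 h replicate 1 or 6 h replicate 2. Without 6 h replicate 3 it was 5 higher and 36 lower.

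Between the library sets no gene of the 32 changed sign in 447 recomputed values. As the groups did not overlap, only median centring and quantile normalisation could have changed a sign. The median difference was 2.74 with a pseudocount of 0.1 and 2.56 to 2.77 with 1 library left out. With a filter of 10 FPKM 1 gene, Mxd4, was below in every library, because Mxd1 was not tested. The ribosomal protein median was 1.03 after quantile normalisation and 1.05 to 1.33 with 1 library left out, the ends without the knockout and the control library. The median of all genes ran from -0.37 without a filter to 0.51 with a filter of 10 FPKM, and the change of 6 h against 0 h is limited by 3 libraries a group.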

Other observations

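Targets of p53, the transcription factor that ribosomal proteins stabilise when ribosome assembly is disturbed, lay apart between the library sets without moving one way. Of 15 genes, 10 were higher and 4 lower in the time libraries without overlap, beside 41.3% and 37.8% of all genes, with a median log2 difference of 1.90. Mdm2, the ubiquitin ligase of p53, stood at 22.8 and 27.5 FPKM in the genotype libraries against 139 to 163 FPKM, and the cell cycle inhibitor gene Cdkn1a at 82.1 and 101 FPKM against 318 to 387 FPKM at 0 h and 313 to 345 FPKM at 6 h. Gdf15 went the other way, from 20.9 and 15.8 FPKM to 4.46 to 6.76 FPKM, and Btg2 had a mean of 492 FPKM against 72.5 FPKM. None of the 15 was called at 6 h by limma, with 1 unadjusted p under 0.05. Phlda3 stood at 238 ± 16.4 and 207 ± 4.27 FPKM (SD, n = 3; adjusted p = 0.23 in limma). Mdm2 and Btg2 were chosen after their values were seen.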
